A study of Mus musculus with 12 samples.

Results

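The genes described are 10 genes of mouse monocytes, namely Csf1r, Ccr2, Ly6c2, F13a1, Ms4a6c, Irf8, Klf4, Cx3cr1, Nr4a1 and Ace. They were chosen by symbol as known genes of classical and patrolling monocytes, and each symbol matched 1 row of tables that hold 53801 genes. All 10 were among the 15119 genes with enough counts to be tested. RNA sequencing of whole bone marrow from C57BL/6N mice gave 12 libraries, 3 in each of 4 groups. MI-E is myocardial infarction with EMPA, MI is infarction without it, Sham-E is a sham operation with EMPA, and Sham is a sham operation without it. Infarction was made by ligating the LAD, the coronary artery along the front of the heart. No group carries a named genetic change. No source used here gives the dose of EMPA, the time between surgery and marrow collection, or the age of the mice. The labels do not say whether the 12 libraries stand for separate mice, so p-values measure the spread between these samples, which may be technical.

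Monocytes form in the bone marrow from progenitors that depend on the receptor Csf1r and the transcription factor Irf8. Classical monocytes, high in the surface protein Ly6C, leave the marrow through the chemokine receptor Ccr2 and enter injured tissue, the infarcted heart among them. Some convert into patrolling monocytes, which are low in Ly6C, carry the fractalkine receptor Cx3cr1, need the nuclear receptor Nr4a1 and crawl along vessel walls.

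Cx3cr1 stood lower in both infarcted groups than in both sham-operated groups, Ms4a6c was highest in MI, and Nr4a1 was lowest in MI and very high in a single MI-E library. None of the 10 genes passed an adjusted p of 0.05 in any of the 5 planned comparisons. Of these, MI against Sham and MI-E against Sham-E ask what infarction changed without and with EMPA. MI-E against MI and Sham-E against Sham ask what EMPA changed in infarcted and in sham-operated marrow. The interaction asks whether the effect of EMPA differed between the operations, and is positive where EMPA raised a gene more after infarction. The comparisons share libraries, so their values for a gene are not independent of each other. Log2 fold changes are given with their standard errors, and p-values come from the quasi-likelihood test of edgeR with Benjamini-Hochberg adjustment over all genes tested. Levels within a gene are in CPM, counts scaled to a common library size. Bulk marrow holds many cell types, and fewer cells of a type and less RNA per cell cannot be told apart in it.

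Upstream sequences are shown for 3 of the genes: Cx3cr1, whose level separated infarcted from sham-operated marrow, Ace, the gene among the other 9 whose level followed Cx3cr1 most closely, and Ly6c2, the most abundant of the 10. Each is the RefSeq window of 300 bases around a gene start on GRCm38.p6, written 5′ to 3′ along the gene. Capitals mark GAGGAAGT, a form of the site of PU.1, the master factor of myeloid cells.
Cx3cr1, chr9:120068247-120068546, minus strand: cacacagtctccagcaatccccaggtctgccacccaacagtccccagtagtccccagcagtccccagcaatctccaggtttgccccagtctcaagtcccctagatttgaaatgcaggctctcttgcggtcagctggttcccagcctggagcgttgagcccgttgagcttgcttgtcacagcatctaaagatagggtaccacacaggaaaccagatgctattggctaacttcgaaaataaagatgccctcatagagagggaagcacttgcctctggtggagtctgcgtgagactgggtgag
Ace, chr11:105967698-105967997, plus strand: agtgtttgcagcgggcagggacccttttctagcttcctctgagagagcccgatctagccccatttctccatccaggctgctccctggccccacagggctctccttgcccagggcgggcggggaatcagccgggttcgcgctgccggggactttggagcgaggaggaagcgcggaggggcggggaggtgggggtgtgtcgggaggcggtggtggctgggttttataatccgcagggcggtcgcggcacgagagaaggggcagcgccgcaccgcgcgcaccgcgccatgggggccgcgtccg
Ly6c2, chr15:75111922-75112221, minus strand: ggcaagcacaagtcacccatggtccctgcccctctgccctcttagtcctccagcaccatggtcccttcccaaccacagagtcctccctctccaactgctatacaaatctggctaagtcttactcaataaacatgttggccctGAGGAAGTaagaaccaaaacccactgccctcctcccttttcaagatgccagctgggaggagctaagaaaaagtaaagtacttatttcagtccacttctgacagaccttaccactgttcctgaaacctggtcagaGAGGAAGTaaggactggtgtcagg

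The Ly6c2 window held these letters at 2 places, with first bases at −108 and +26 from the gene start, and the Cx3cr1 and Ace windows at none. From the other Ly6c2 start given by RefSeq (window chr15:75111888-75112187), the same places lie at −142 and −8. Of 32851 mouse windows of this length, 3.2% held the motif on either strand. A second F13a1 window (chr13:37049164-37049463) also held it, with its first base at +14. The other motifs searched on both strands were the ISRE of interferon regulatory factors, read as GAAA, any 2 bases and GAAA again (3.44% of windows), TGACGTCA of CREB (1.79%), AAAGGTCA of Nr4a1 and its relatives (1.51%), CCACACCC of KLF factors (3.56%) and TTGCNNAA of C/EBP (10.8%). No window of the members searched held any of these. Csf1r was not among the members searched, for PU.1 or for the other motifs. A match of letters does not show a bound site, and its lack says nothing of the factor.

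Total counts per library ran from 21175087 to 24606783, and each of the 10 genes had at least 119 counts in every library, the lowest being that of Cx3cr1 in MI 3. Markers of marrow cells were abundant: the 14 neutrophil markers summed to between 36090 and 63550 CPM. Mean insert length, recovered from the ratio of counts to TPM in genes with a single transcript, was 280.0 to 282.8 bp in MI-E, 263.6 to 265.2 bp in MI, 271.3 to 280.7 bp in Sham-E and 284.5 to 287.4 bp in Sham. Mitochondrial genes took a share of counts of 1.326% to 1.864% in MI-E, 2.234% to 3.584% in MI, 1.372% to 1.872% in Sham-E and 1.487% to 1.665% in Sham. Both measures set the MI libraries apart from all the others, so they move with every value below in which MI is set against Sham or against MI-E. Their part in those values was not tested. Sham-E 1 stood apart within its group in several of the 10 genes, as did MI 3, and MI-E 3 in Nr4a1 and Klf4.

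Per transcript length, Ly6c2 was the most abundant of the 10 genes and those of patrolling monocytes were the least. On the TPM scale, which divides by length, Ly6c2 ran from 1294.7 through a median of 1910 to 2547.92 TPM over the 12 libraries. F13a1 had a median of 172.7 TPM (116.52 to 359.31), Ms4a6c of 135.8 (111.58 to 213.18), Irf8 of 127.8 (93.86 to 165.93) and Ccr2 of 119.9 (91.59 to 228.8). These 4 ranges overlapped each other. Csf1r followed with 64.65 TPM (45.3 to 78.64) and Klf4 with 27.68 (16.8 to 36.03). The 3 patrolling genes had medians of 16.73 TPM for Nr4a1 (8.4 to 49.64), 9.43 for Cx3cr1 (1.86 to 16.04) and 6.25 for Ace (1.94 to 12.6). MI 3 had the lowest TPM of the 12 libraries in Ly6c2, Klf4, Cx3cr1, Nr4a1 and Ace.

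**Figure D1:**
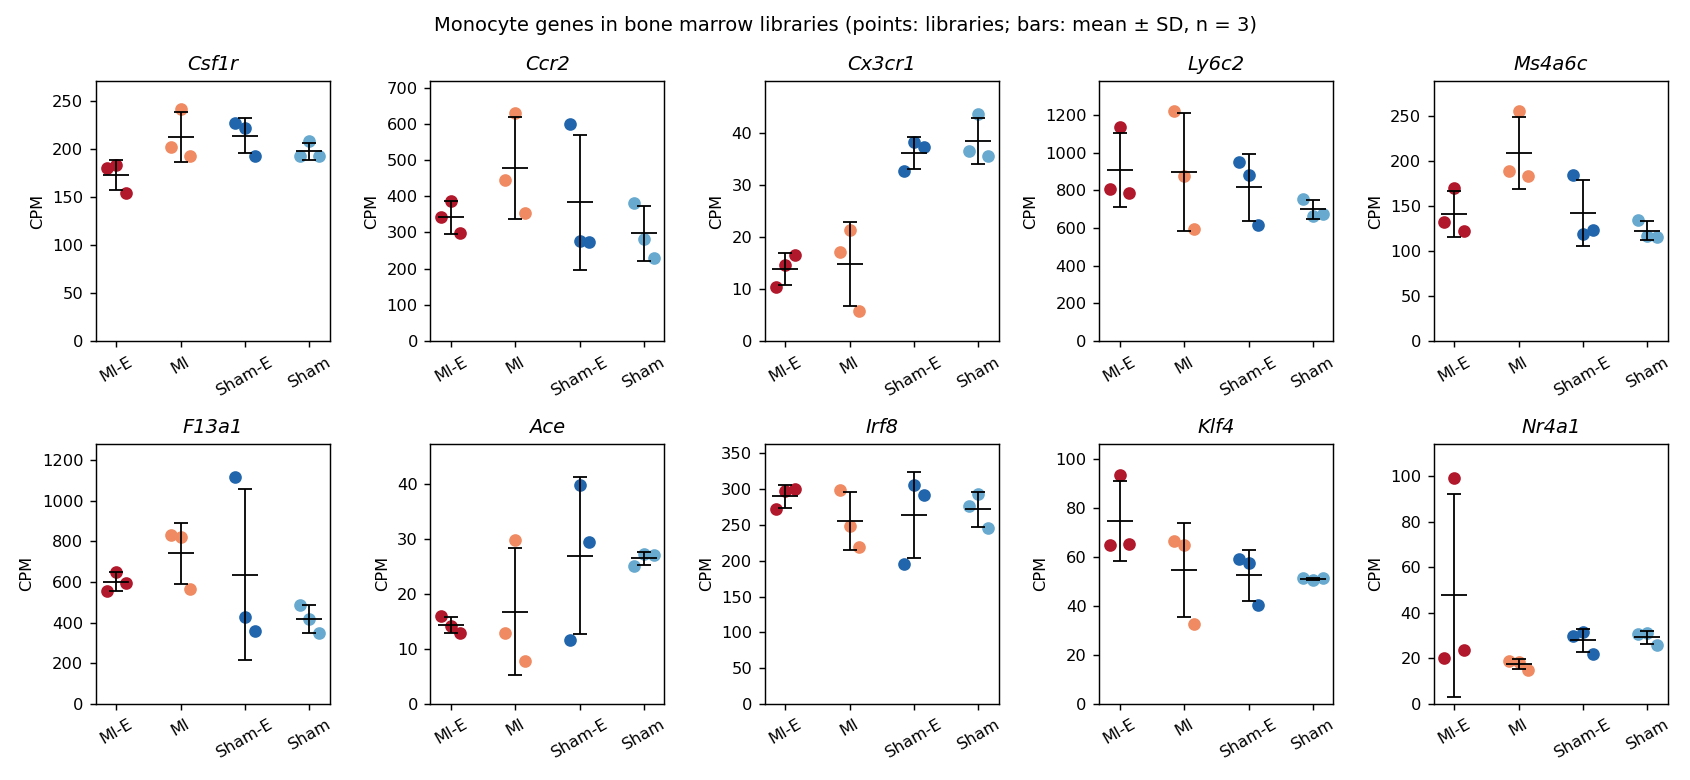
CPM of each of the 10 genes by group, with a linear axis from 0; points are libraries, and bars are the mean and SD (n = 3). Cx3cr1 shows the 6 infarcted libraries, at 5.871 to 21.36 CPM, below the 6 sham-operated libraries, at 32.65 to 43.46 CPM.

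Cx3cr1 (ENSMUSG00000052336, chr9:119901616-120069879 on mm10, minus strand) encodes the receptor for fractalkine, through which patrolling monocytes are held at vessel walls and survive. It had 10.36, 14.63 and 16.52 CPM in the MI-E libraries, 17.17, 21.36 and 5.871 CPM in MI, 32.65, 38.28 and 37.24 CPM in Sham-E, and 36.39, 43.46 and 35.42 CPM in Sham. Every infarcted library was below every sham-operated one, and the MI-E and MI libraries overlapped, as did those of Sham-E and Sham. In MI against Sham the log2 fold change was −1.38 ± 0.35, or 2.59-fold lower in MI, with an edgeR adjusted p of 0.0822. In MI-E against Sham-E it was −1.38 ± 0.35, or 2.61-fold lower in MI-E, with an edgeR adjusted p of 0.244. The interaction was −0.01 ± 0.49 with a 95% interval of −1.07 to 1.06. That interval is wide in both directions, so it does not show that Cx3cr1 responded alike with and without EMPA.

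Cx3cr1 was also read with the 6 infarcted libraries against the 6 sham-operated ones, with EMPA averaged over. That comparison was chosen after the values were seen, so its p is no independent support. Cx3cr1 averaged 13.8 ± 3.15 CPM in MI-E, 14.8 ± 8.01 CPM in MI, 36.1 ± 3.00 CPM in Sham-E and 38.4 ± 4.39 CPM in Sham (SD, n = 3 each). The log2 fold change was −1.38 ± 0.25 (95% interval −1.92 to −0.84; edgeR adjusted p = 0.0496), and Cx3cr1 fell, with 6 of 6 infarcted libraries lower. Over all genes tested, 43 (0.284%) passed in this comparison, 22 of them lower (0.146%), 20.3% had an unadjusted p under 0.05, and 248 (1.64%) did not overlap, 105 of them lower (0.694%). The call was lost when MI 1, Sham-E 2, Sham-E 3 or any one library of MI-E or Sham was left out (adjusted p 0.0982 to 0.164), while the fold change stayed between −1.56 and −1.19, and with no filter on low counts (adjusted p = 0.0572). In MI against Sham alone, Cx3cr1 passed without MI 2 (−1.73, adjusted p = 0.0428) and without Sham-E 1 (adjusted p = 0.0392). Without MI 3 its fold change there came to −0.996, and over single libraries left out the edgeR adjusted p reached 0.25. No other of the 10 genes passed over infarction, and none passed or was free of overlap with the 6 EMPA libraries against the 6 others (adjusted p 0.81 to 0.971). There 0% of all genes passed, 5.75% had an unadjusted p under 0.05, and 0.0992% did not overlap (0.0728% higher, 0.0265% lower).

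Csf1r is the receptor of the growth factors Csf1 and Il34, on which monocytes and macrophages depend. It had 180.8, 183.5 and 154.8 CPM in the MI-E libraries, 202.1, 242.0 and 193.0 CPM in MI, 227.2, 222.2 and 193.2 CPM in Sham-E, and 192.6, 208.1 and 192.7 CPM in Sham. The MI-E libraries lay below all 9 others. The log2 fold change was −0.30 ± 0.13 in MI-E against MI (edgeR adjusted p = 0.277; −0.19 without MI 2) and −0.31 ± 0.13 in MI-E against Sham-E (adjusted p = 0.349). MI and Sham overlapped, and the interaction was −0.41 ± 0.19 (edgeR adjusted p = 0.37). Of the exon bases of Csf1r, 15.1% lie within exons of Hmgxb3 on the opposite strand, and reads from such a stretch can be assigned only if the libraries keep strand, which is not given.

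Ccr2 (ENSMUSG00000049103, chr9:124101950-124113557, plus strand) encodes the receptor for Ccl2 that classical monocytes need to leave the marrow. It had 341.4, 386.0 and 297.3 CPM in the MI-E libraries, 444.6, 631.0 and 354.9 CPM in MI, 599.3, 275.7 and 274.9 CPM in Sham-E, and 380.5, 282.5 and 230.2 CPM in Sham. The highest values were in MI 2 and Sham-E 1, and the groups overlapped in every comparison. In MI against Sham the log2 fold change was 0.68 ± 0.32 (edgeR adjusted p = 0.259), which came to 0.42 without MI 2. It was −0.48 ± 0.31 in MI-E against MI (edgeR adjusted p = 0.446; −0.23 without MI 2), and the interaction was −0.85 ± 0.44 (0.415; −0.37 without Sham-E 1).

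Ly6c2 (ENSMUSG00000022584, chr15:75108158-75111970, minus strand) encodes the Ly6C protein by which classical monocytes are sorted. It had 805.5, 1134 and 787.1 CPM in the MI-E libraries, 1223, 879.0 and 597.6 CPM in MI, 953.0, 882.3 and 614.9 CPM in Sham-E, and 756.6, 665.0 and 677.0 CPM in Sham. MI held both the highest and the lowest of the 12 values. MI against Sham gave 0.36 ± 0.25 on the log2 scale (edgeR adjusted p = 0.449), with 0.08 without MI 1 and 0.59 without MI 3. Its close relative Ly6c1, which marks vessels and lymphocytes more than monocytes, had 7 to 50 counts per library. Of stretches of 50 bases in Ly6c2 transcripts, 13.9% also occur in Ly6c1, and reads in them could come from either gene.

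F13a1 (ENSMUSG00000039109, chr13:36867178-37050244, minus strand) encodes the catalytic subunit of the transglutaminase that cross-links fibrin, made by monocytes, macrophages and megakaryocytes. It had 556.5, 650.6 and 594.7 CPM in the MI-E libraries, 833.5, 821.3 and 566.4 CPM in MI, 1119, 427.7 and 359.1 CPM in Sham-E, and 489.2, 417.8 and 350.6 CPM in Sham. Every MI library lay above every Sham library, and Sham-E 1 was the highest of all 12. MI against Sham gave 0.82 ± 0.35 (edgeR adjusted p = 0.228), and F13a1 passed without Sham-E 1 (adjusted p = 0.019), a library outside that comparison that enters the shared spread. Over single libraries left out, this fold change ran from 0.699 to 0.981 and the edgeR adjusted p reached 0.489. Sham-E against Sham gave 0.60 ± 0.35 (edgeR adjusted p of 1), which turned to −0.09 without Sham-E 1, and the interaction gave −0.90 ± 0.50 (0.436; −0.21 without Sham-E 1).

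Genes of platelets and of vessel-wall coagulation (Vwf and Tgm2 among them) were read beside F13a1 because megakaryocytes also make it. The summed level of the 10 listed, of which 9 were tested, was 240.1 to 290.1 CPM in MI-E, 120.8 to 197.9 in MI, 99.55 to 187.7 in Sham-E and 120 to 234.2 in Sham. MI-E was highest for this sum, whereas for F13a1 the highest libraries were Sham-E 1, MI 1 and MI 2. All 9 tested had positive fold changes in MI-E against Sham-E, with a median of 1.06 beside 0.003 over all genes tested, and none passed. Itga2b, the platelet integrin chain for fibrinogen, gave 1.02 ± 0.23 (edgeR adjusted p = 0.244), and Treml1, a receptor of platelet granules, gave 2.80 ± 0.80 in the interaction (0.264).

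Ms4a6c (ENSMUSG00000079419, chr19:11469366-11482192, plus strand) is a membrane protein of the Ms4a family that is high in classical monocytes. It had 132.6, 170.8 and 122.2 CPM in the MI-E libraries, 189.5, 255.4 and 183.6 CPM in MI, 184.8, 119.3 and 123.9 CPM in Sham-E, and 134.9, 116.9 and 116.1 CPM in Sham. Every MI library lay above every MI-E and every Sham library. MI against Sham gave 0.77 ± 0.20 (edgeR adjusted p = 0.0805), with 0.43 by limma on the TPM scale (adjusted p = 0.226), and the gene passed without Sham-E 1 (adjusted p = 0.0156). Without MI 2 the edgeR fold change came to 0.605, and over single libraries left out the edgeR adjusted p reached 0.283. MI-E against MI gave −0.56 ± 0.20 (edgeR adjusted p = 0.186), and the interaction −0.78 ± 0.28 (edgeR adjusted p = 0.296). MI-E and Sham-E overlapped, at 142 ± 25.6 and 143 ± 36.6 CPM (SD, n = 3 each).

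The Ms4a6c values are shared with an overlapping gene. Of its exon bases, 53.1% lie within exons of BE692007 on the opposite strand, so without strand their reads cannot be told apart. BE692007 had 25.29, 21.87 and 20.75 CPM in the MI-E libraries, 37.16, 48.97 and 39.81 CPM in MI, 32.43, 28.81 and 26.22 CPM in Sham-E, and 23.63, 28.07 and 22.04 CPM in Sham. Like Ms4a6c it was highest in MI. It gave 0.77 ± 0.15 in MI against Sham (edgeR adjusted p = 0.0521), which came to 0.37 by limma on the TPM scale (adjusted p = 0.266). The other values were −0.89 ± 0.15 in MI-E against MI (0.0847) and an interaction of −1.14 ± 0.22 (0.221). Among the close relatives, Ms4a6d had 18.19, 25.73 and 14.92 CPM in the MI-E libraries, 30.23, 55.17 and 12.88 CPM in MI, 73.08, 10.02 and 12.35 CPM in Sham-E, and 11.73, 10.05 and 9.49 CPM in Sham, and so shared with Ccr2 the high values of MI 2 and Sham-E 1. Its log2 fold change in MI against Sham was 1.65 ± 0.72 (edgeR adjusted p = 0.239; 1.05 without MI 2), and it passed without Sham-E 1 (adjusted p = 0.0344). Over single libraries left out, the edgeR adjusted p of Ms4a6d there reached 0.47. Ms4a6b, a member of the family known from T cells, ranged from 41.86 to 78.81 CPM.

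Ace (ENSMUSG00000020681, chr11:105967945-105989964, plus strand) encodes angiotensin-converting enzyme, a peptidase high on patrolling monocytes and on vessel walls. It had 15.99, 14.10 and 12.97 CPM in the MI-E libraries, 12.81, 29.74 and 7.844 CPM in MI, 11.59, 39.83 and 29.37 CPM in Sham-E, and 25.08, 27.25 and 27.12 CPM in Sham. The infarcted libraries were low except MI 2, and the sham-operated ones high except Sham-E 1. MI against Sham gave −0.66 ± 0.47 (edgeR adjusted p = 0.467), with −1.36 without MI 2 and −0.32 without MI 3. MI-E against Sham-E gave −0.91 ± 0.47 (edgeR adjusted p = 0.425; −0.52 without Sham-E 2). With EMPA averaged over, infarction gave −0.78 ± 0.33 (edgeR adjusted p = 0.222), and the gene passed without MI 2 and without Sham-E 1. Without Sham-E 2 that fold change came to −0.591, and over single libraries left out the edgeR adjusted p reached 0.419. Endothelial and stromal markers summed to 27.3 to 45.05 CPM in MI-E, 25.68 to 44.84 in MI, 24.04 to 77.05 in Sham-E and 63.36 to 111.7 in Sham. That list holds stromal and osteoblast genes, Bglap among them, beside those of vessels, so its sum is not a level of vessel cells alone. The part of vessel cells in the Ace values was not tested.

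Irf8 (ENSMUSG00000041515, chr8:120736358-120756694, plus strand) encodes the transcription factor that directs progenitors towards monocytes and dendritic cells and away from neutrophils. It had 271.7, 297.5 and 300.2 CPM in the MI-E libraries, 299.4, 248.6 and 219.7 CPM in MI, 195.0, 305.2 and 291.4 CPM in Sham-E, and 276.5, 293.5 and 245.1 CPM in Sham. No comparison separated its groups. MI-E against MI gave 0.18 ± 0.18 (edgeR adjusted p = 0.636; 0.08 without MI 3 and 0.31 without MI 1), and the other fold changes between groups were smaller than their standard errors. Klf4 (ENSMUSG00000003032, chr4:55527143-55532466, minus strand), a factor that acts in the maturation of monocytes, had 64.88, 93.49 and 65.39 CPM in the MI-E libraries, 66.60, 64.74 and 32.41 CPM in MI, 58.98, 57.69 and 40.57 CPM in Sham-E, and 51.32, 50.72 and 51.50 CPM in Sham. MI-E lay above Sham-E without overlap, with 0.51 ± 0.25 (edgeR adjusted p = 0.399; 0.31 without MI-E 3). MI-E against MI gave 0.45 ± 0.25 (edgeR adjusted p = 0.368), with 0.18 without MI 3 and 0.26 without MI-E 3.

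Nr4a1 (ENSMUSG00000023034, chr15:101254269-101274795, plus strand) encodes the nuclear receptor that patrolling monocytes need, and it is also an immediate early gene, switched on within a short time of many stimuli. It had 20.26, 99.12 and 23.71 CPM in the MI-E libraries, 18.90, 18.34 and 15.05 CPM in MI, 29.92, 31.68 and 22.04 CPM in Sham-E, and 30.93, 30.98 and 25.97 CPM in Sham. The MI libraries were the lowest of the 12, and MI-E 3 was far above every other. MI against Sham gave −0.75 ± 0.49 (edgeR adjusted p = 0.427). MI-E against MI gave 1.45 ± 0.50 (edgeR adjusted p = 0.186), which came to 0.33 without MI-E 3. MI-E against Sham-E gave 0.77 ± 0.49 (edgeR adjusted p = 0.504), which turned to −0.34 without MI-E 3, and the interaction of 1.52 ± 0.70 (0.375) came to 0.41 without it.

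Other immediate early genes were read beside Nr4a1. Over 20 of them the summed level was 3387 to 6909 CPM in MI-E, 1827 to 2471 in MI, 2561 to 3596 in Sham-E and 2817 to 4193 in Sham. In MI against Sham 16 of the 20 had negative fold changes (median −0.96), and in MI-E against MI 18 had positive ones (median 1.03), with none past the threshold in either. Junb, a subunit of the AP-1 factor, gave 1.67 ± 0.31 in MI-E against MI (edgeR adjusted p = 0.0847) and Zfp36, which destabilises messages of inflammatory genes, 1.46 ± 0.33 (0.107). Ier5 gave −0.94 ± 0.21 in MI against Sham (edgeR adjusted p = 0.0609). The library with the highest sum and the one with the highest Nr4a1 was MI-E 3 in both cases. The part of an immediate early response in the Nr4a1 values was not tested.

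**Figure D2:**
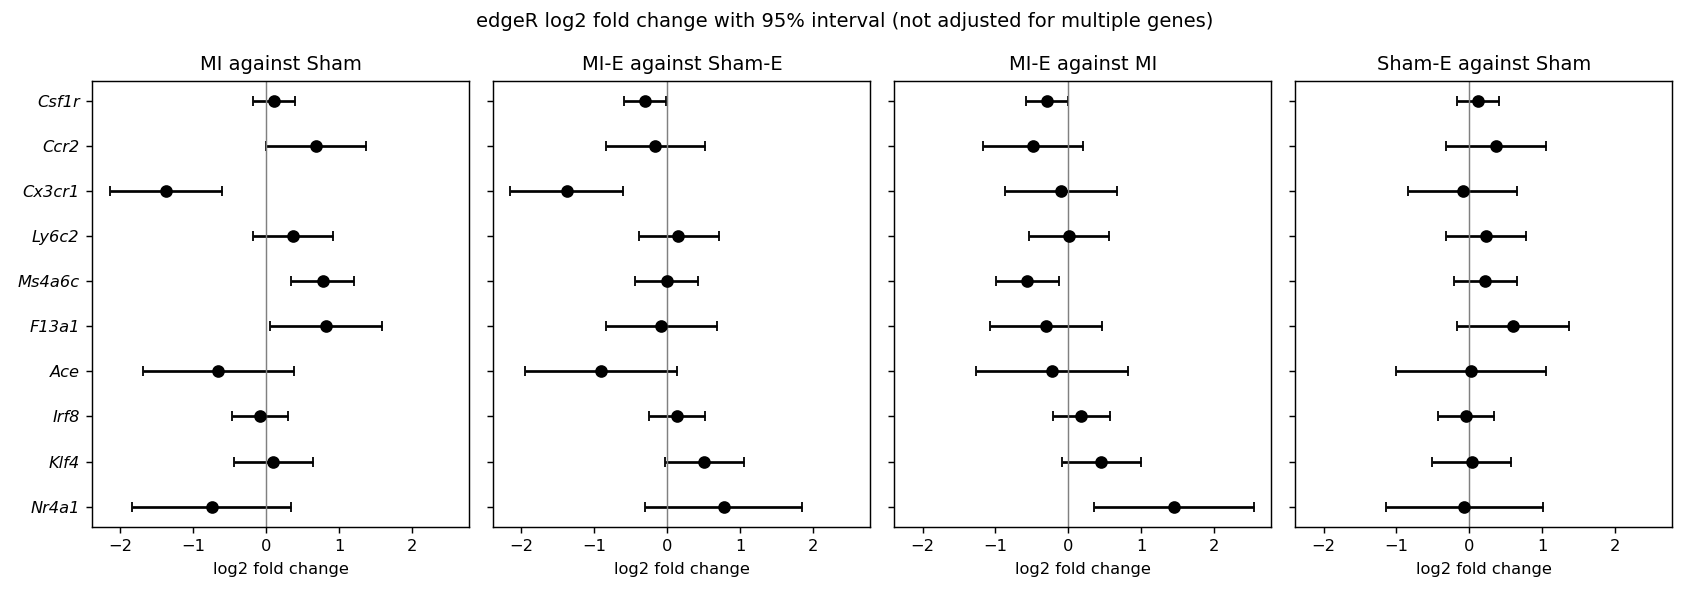
Log2 fold change of each of the 10 genes in 4 comparisons, by edgeR; points are estimates and bars 95% intervals, not adjusted for the number of genes. Cx3cr1 stands at −1.38 in both comparisons of infarction with sham operation, and Nr4a1 at 1.45 in MI-E against MI.

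Counts of the 10 genes are set here beside the share of all genes tested, the background, and most were near it. In MI against Sham 3 of the 10 genes (Ms4a6c, Cx3cr1 and F13a1) had an unadjusted p under 0.05, where 19.5% of all genes tested did, and 0.417% passed after adjustment. Groups did not overlap in 4 of the 10, with Ms4a6c and F13a1 higher and Cx3cr1 and Nr4a1 lower, where 27.3% of all genes did not (13.4% higher, 13.8% lower). In MI-E against MI 3 had an unadjusted p under 0.05 (Nr4a1, Ms4a6c and Csf1r; background 17.4%, with 0.00661% past the threshold), and 3 did not overlap, Nr4a1 higher (background 11.6%) and Ms4a6c and Csf1r lower (background 10.1%; 21.7% in both directions). In MI-E against Sham-E 2 had an unadjusted p under 0.05 (Cx3cr1 and Csf1r; background 13.4%, with 0% past the threshold) and 3 did not overlap, Klf4 higher (background 11.7%) and Cx3cr1 and Csf1r lower (background 12.2%; 23.9% in both directions). In the interaction 2 had an unadjusted p under 0.05 (Ms4a6c and Csf1r; background 13.5%, with 0.00661% past the threshold). In Sham-E against Sham none had an unadjusted p under 0.05 (background 1.9%, 0% past the threshold) and none was free of overlap (background 8.98%, with 4.52% higher and 4.46% lower). Leaving out Sham-E 1 raised the genes passing in MI against Sham to 1231, against 63 with all 12 libraries, so the members that pass without it do so beside a larger background. Leaving out MI 2, without which Cx3cr1 passed, raised them to 310.

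DESeq2 called more genes than edgeR in each comparison run, so its calls of members come beside a larger background. With it, Cx3cr1 (adjusted p = 0.0052) and Ms4a6c (0.0129) passed in MI against Sham, Cx3cr1 (0.0181) in MI-E against Sham-E, and Nr4a1 (0.0413) in MI-E against MI, a gene whose edgeR fold change there came to 0.33 without MI-E 3. Limma on log2(TPM + 1) moved some fold changes of the members by over 1.5 times with none of these past the threshold. It gave 0.10 for Ly6c2 in MI against Sham, and in MI-E against Sham-E it gave −0.52 for Csf1r, 0.31 for Klf4 and 0.37 for Nr4a1.

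Correlations of log2 CPM between the 10 genes over the 12 libraries are given as descriptions, since the libraries share groups and insert length moves with them. Ccr2 followed F13a1 with r = 0.911 (Spearman 0.909) and Ms4a6c with r = 0.895 (0.923), and Ly6c2 followed Klf4 with r = 0.831 (0.853). Cx3cr1 and Ace gave r = 0.763 (0.692), while Nr4a1 gave 0.23 with Cx3cr1 (0.51) and 0.094 with Ace (0.28). The lowest of the 45 pairs was F13a1 with Ace, at r = −0.567 (−0.573).

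**Figure D3:**
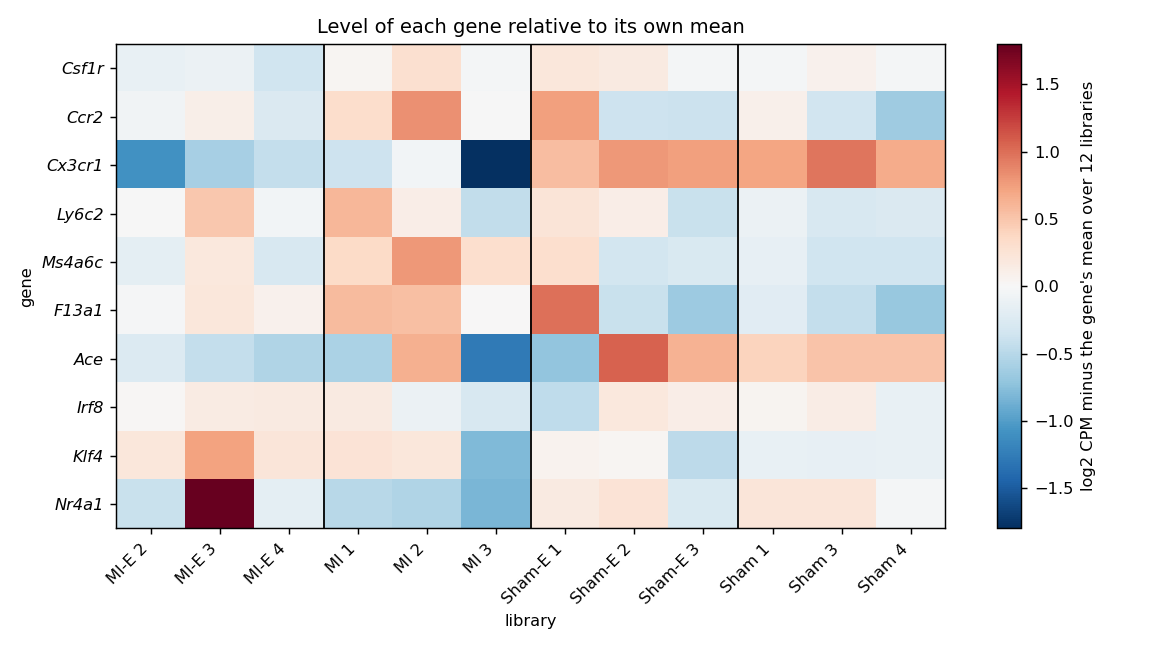
Level of each gene (rows) in each library (columns, grouped by MI-E, MI, Sham-E and Sham) as log2 CPM minus the mean of the gene over 12 libraries; red is above and blue below. The Cx3cr1 row is blue or pale in the 6 infarcted libraries and red in the 6 sham-operated ones, Sham-E 1 is red for Ccr2 and F13a1 but blue for Ace and Irf8, and Nr4a1 is deepest red in MI-E 3.

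Ratios of classical to patrolling genes within a library do not depend on its scaling. Ly6c2 counts per Cx3cr1 count were 77.731, 77.55 and 47.656 in MI-E, 71.22, 41.146 and 101.79 in MI, 29.189, 23.049 and 16.513 in Sham-E, and 20.792, 15.301 and 19.115 in Sham. Each infarcted library was above each sham-operated one. Ccr2 counts per Cx3cr1 count were 32.943, 26.388 and 17.997 in MI-E, 25.888, 29.538 and 60.454 in MI, 18.356, 7.203 and 7.382 in Sham-E, and 10.456, 6.5 and 6.499 in Sham. Here MI-E 4 was just under Sham-E 1, and every other pair of an infarcted and a sham-operated library had the infarcted one higher. Ccr2 counts per Ace count were 21.352, 27.368 and 22.923 in MI-E, 34.715, 21.218 and 45.245 in MI, 51.713, 6.922 and 9.359 in Sham-E, and 15.168, 10.366 and 8.488 in Sham. For this pair Sham-E 1 was the highest of the 12, so infarcted and sham-operated libraries overlapped. A ratio by itself does not say which of its pair differed. Cx3cr1 alone already set the 6 infarcted libraries below the 6 sham-operated ones, while Ly6c2 and Ccr2 overlapped in every comparison. The ratios to Cx3cr1 are therefore no result independent of Cx3cr1, and no share of all gene pairs that separate in this way was computed.

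**Figure D4:**
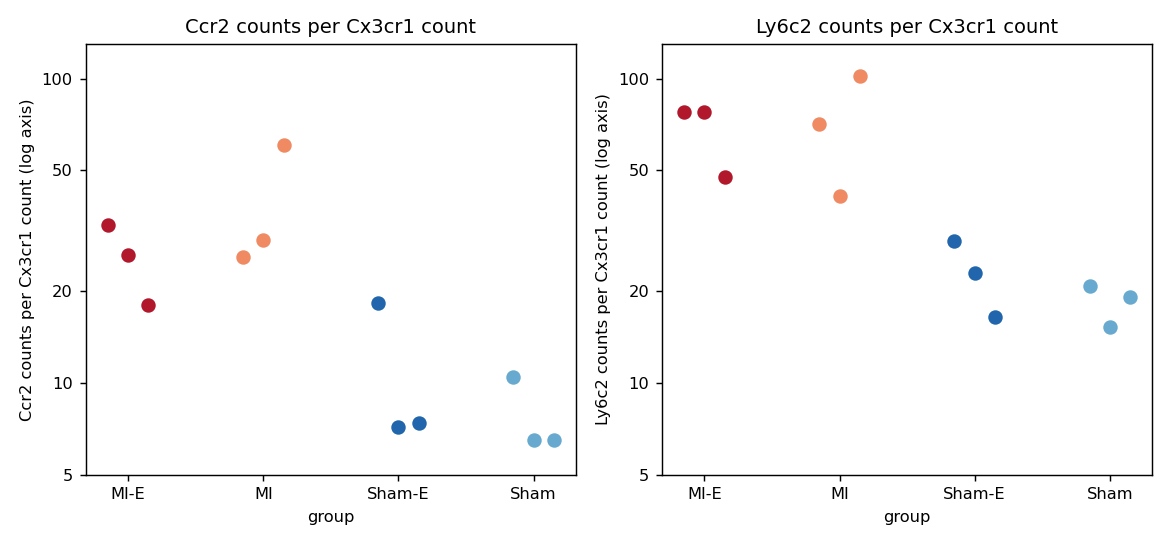
Counts of Ccr2 (left) and of Ly6c2 (right) per count of Cx3cr1 in each library, on a log axis, by group. For Ly6c2 the 6 infarcted libraries, at 41.146 to 101.79, stand above the 6 sham-operated ones, at 15.301 to 29.189.

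For each gene the tested genes whose log2 CPM was most like its own over the 12 libraries were taken from 11113 genes. Nearest to Cx3cr1 were Dalrd3 (r = 0.971), Ifi214 (0.958) and Pi4ka (0.957), and to Ace they were Cacna1e (0.962), Ifi47 (0.959) and Cbx2 (0.958). Nearest to F13a1 were Cd200r1, a receptor of myeloid cells (0.991), Anxa7 (0.964) and Pgam1 (0.963). For Ccr2 they were Mettl9 (0.962), Actr2 (0.955) and Upp1 (0.95), and for Ms4a6c Rap1b (0.98), Ap3m1 (0.98) and Cyb5r4 (0.969). Nr4a1 was nearest to the immediate early genes Csrnp1 (0.942), Atf3 (0.918) and Plk3 (0.904). The Spearman values of these were lower, at 0.804, 0.748 and 0.657, and the far higher Nr4a1 level of MI-E 3 enters each r. Klf4 was nearest to Il3ra, a chain of the interleukin-3 receptor (0.949), Irf8 to Vamp5 (0.906), Csf1r to Parp4 (0.946) and Ly6c2 to Sept9 (0.946).

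Wider lists of monocyte genes were read in the same fit. Of 20 classical genes, 4 of the 10 among them, 17 had positive and 3 negative fold changes in MI against Sham, with a median of 0.61 beside 0.025 over all genes tested. Over the 16 others the median was 0.50. Gpr141, an orphan receptor, passed, with 84.0 ± 6.97 CPM in MI-E, 118 ± 7.03 in MI, 96.9 ± 12.7 in Sham-E and 69.7 ± 2.4 in Sham (SD, n = 3 each), which gave 0.76 ± 0.12 in MI against Sham (edgeR adjusted p = 0.0309), and 0.40 by limma on the TPM scale (adjusted p = 0.158). The median of the classical list was −0.21 in MI-E against MI, with 16 of 20 negative, 0.26 in Sham-E against Sham, with 19 of 20 positive, and −0.07 in MI-E against Sham-E. None passed in those. The summed level of the list in CPM was 12920, 15910 and 14200 for the MI-E libraries, 21410, 18100 and 12490 for MI, 21720, 12110 and 11540 for Sham-E, and 11490, 11180 and 10250 for Sham. Sham-E 1 was the highest of the 12, and the other two Sham-E libraries lay close to the Sham ones.

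Of 21 patrolling genes, Cx3cr1, Nr4a1 and Ace among them, 9 were positive and 12 negative in MI against Sham, with a median of −0.02. Cx3cr1 was lower there while Clec4a1, a C-type lectin receptor, rose: it had 28.5 ± 0.644 CPM in MI-E, 50.6 ± 2.77 in MI, 33.7 ± 9.82 in Sham-E and 24.1 ± 1.16 in Sham (SD, n = 3 each), which gave 1.07 ± 0.17 on the log2 scale (edgeR adjusted p = 0.0309). The calls of Gpr141 and of Clec4a1 were both lost without MI-E 2, MI-E 4, MI 3, Sham 1, Sham 3 or Sham 4. In MI-E against Sham-E 6 of the 21 were positive and 15 negative, with a median of −0.183 beside 0.003 over all genes tested. In MI-E against MI 5 were positive and 16 negative (median −0.185 beside −0.022). In Sham-E against Sham 13 were positive and 8 negative (median 0.025 beside 0.013). None passed in those. With infarction averaged over EMPA, 8 of the 21 were positive and 13 negative (median −0.06), and Cx3cr1 was the one that passed. Spn, which encodes CD43, is used to sort these cells and was looked up after the values were seen, had 265 ± 6.13 CPM in MI-E, 268 ± 10.4 in MI, 277 ± 43.0 in Sham-E and 268 ± 6.24 in Sham.

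**Figure D5:**
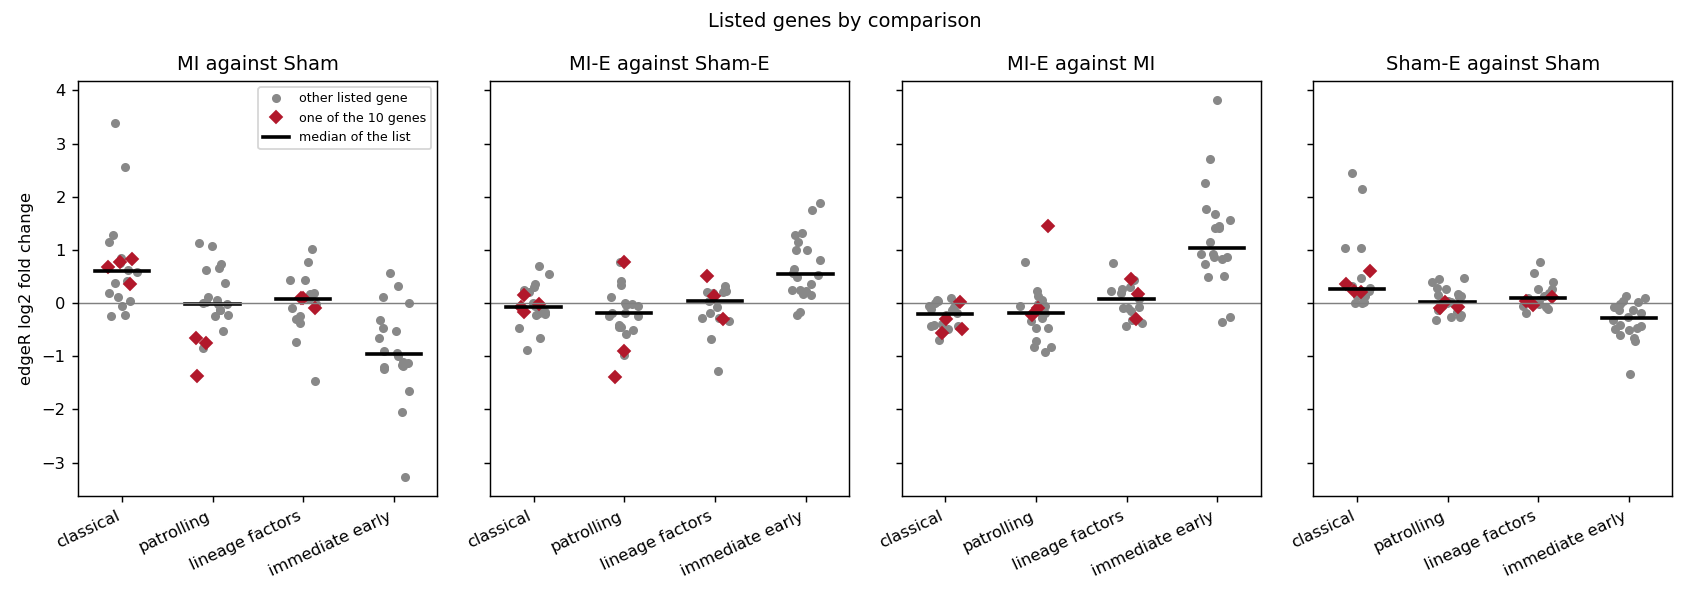
Log2 fold change by edgeR of each gene of 4 lists in 4 comparisons; grey points are listed genes, red diamonds those among the 10, and bars the median of a list. The classical list has its median at 0.61 in MI against Sham, and the immediate early list at −0.96 there and at 1.03 in MI-E against MI.

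Of 17 genes of progenitors and lineage factors, with Csf1r, Irf8 and Klf4 among them, 9 were positive and 8 negative in MI against Sham (median 0.08), and none passed. Zeb2, a factor active in monocyte development, gave −0.67 ± 0.18 in MI-E against Sham-E (edgeR adjusted p = 0.244), Runx1, a factor of blood stem cells, −0.30 ± 0.11 in MI against Sham (0.155; −0.61 by limma on the TPM scale) and Irf5 0.44 ± 0.17 (0.178; 0.28 without MI 1). Of 20 ligands and receptors 16 were tested, and 8 were positive and 8 negative in MI against Sham (median −0.06), with none past the threshold. Ccr1, a chemokine receptor of monocytes and neutrophils, had 213 ± 25.9 CPM in MI-E, 296 ± 47.8 in MI, 182 ± 60.7 in Sham-E and 148 ± 27.7 in Sham, a change of 1.00 ± 0.22 in MI against Sham (edgeR adjusted p = 0.062). Csf1, the ligand of Csf1r, gave −0.44 ± 0.14 in MI against Sham (edgeR adjusted p = 0.116).

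Among 15 relatives in the Ly6 and Ms4a families, 9 were positive and 6 negative in MI against Sham (median 0.09) and none passed. Ms4a4a, known from macrophages, gave 2.18 ± 0.63 (edgeR adjusted p = 0.109), Ms4a8a 2.55 ± 0.80 (0.125) and Ly6d, a marker of early B cells, −1.23 ± 0.41 (0.137). Ms4a4a, Ms4a8a and Ly6d each passed without Sham-E 1.

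Markers of other marrow cells are given for each group. Summed dendritic cell markers, a cell type in which Cx3cr1 is also found, were 187.1 to 209.2 CPM in MI-E, 218.5 to 252.9 in MI, 186.9 to 307.3 in Sham-E and 260 to 291.2 in Sham, with 10 of 12 genes negative in MI against Sham (median −0.57). T and NK cell markers, another set of cells in which Cx3cr1 is found, were 115.8 to 142.9 CPM in MI-E, 91.51 to 132.2 in MI, 154.9 to 172.5 in Sham-E and 129 to 148.1 in Sham, with 7 of 12 negative (median −0.07). Macrophage markers were 1007 to 1361 CPM in MI-E, 1119 to 2232 in MI, 871 to 1484 in Sham-E and 1091 to 1223 in Sham, with 10 of 14 positive in MI against Sham (median 0.27). The high MI value was that of MI 3 alone, while MI 1 and MI 2 had 1119 and 1123 CPM, within the Sham range. For dendritic, T and NK, and macrophage markers the medians with infarction averaged over EMPA were −0.53, −0.115 and 0.171. There 9 of 12, 8 of 12 and 5 of 14 genes were negative. In MI-E against Sham-E the medians were −0.508, −0.179 and 0.042, with 8 of 12, 8 of 12 and 6 of 14 negative. No gene of these 3 lists was at 0 in any library. None passed, and the part of these cells in the Cx3cr1 values was not tested.

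Neutrophil markers were 42550 to 61800 CPM in MI-E, 36090 to 63550 in MI, 39980 to 63400 in Sham-E and 41540 to 43880 in Sham, with 10 of 14 positive in MI against Sham (median 0.31). B cell markers were 1806 to 2238 CPM in MI-E, 1443 to 1853 in MI, 1279 to 2728 in Sham-E and 2265 to 3201 in Sham, with all 12 negative (median −0.68). Erythroid markers were 22560 to 40460 CPM in MI-E, 13070 to 44740 in MI, 6676 to 32020 in Sham-E and 20810 to 27720 in Sham, with 5 of 9 negative (median −0.03). None of these passed, and of the endothelial and stromal markers 1 did, Bglap, the osteoblast gene of osteocalcin (−3.47 ± 0.62, edgeR adjusted p = 0.0369). The Bglap call was lost when any one of MI-E 2, MI-E 4, MI 1, MI 3, Sham-E 2, Sham 1, Sham 3 or Sham 4 was left out.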

How the data were processed

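Per the labels' protocols, marrow RNA came from a miRNeasy kit and libraries were made by Illumina protocols. Reads were handled with CASAVA 1.8, STAR 2.4.0j and RSEM on mm10, per the submitters' processing notes, which give no order or role. The authors deposited counts per gene as whole numbers, with no scaling, and whether these are estimates of RSEM that were rounded is not stated. The authors also deposited TPM values, which correct for transcript length and sum to the same total in each library. Strand is not given in the sources used here. Libraries are named by group and the number in the column name. Sham columns are numbered 1, 3 and 4 and MI-E columns 2, 3 and 4, whereas titles run from 1 to 3, so these were matched to their group alone. Within each group, the counts of every pair of libraries differed beyond sampling noise, so each was used as a library of its own.

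Counts were scaled by TMM (factors 0.94 to 1.06) after filterByExpr and fitted to all 12 libraries by quasi-likelihood in edgeR 4.0.16 (R 4.3.3), with a mean per group, robust dispersions and a threshold of 0.05 on Benjamini-Hochberg values over the 15119 genes tested. The script was tested on simulated data. The standard error of a log2 fold change is its size divided by the root of its F statistic. DESeq2 1.42.0, limma 3.58.1 on log2(TPM + 1), other scaling, no filter, a replicate block, a fit to the groups compared and each library left out were alternatives. Positions and exon overlaps came from GENCODE M21 on mm10.

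The 10 genes and 14 lists were chosen with earlier results of these data known. The comparisons averaged over EMPA or over the operation were chosen after values were seen. The rule for naming took from each list every gene past the threshold in a planned comparison, and otherwise the 3 with the smallest p. The text names those of the monocyte, platelet and immediate early lists and of the endothelial and stromal markers, except a few that are not reported here, and gives the lists of the other marrow cells by sums, counts and medians alone. The closest genes by Pearson r of log2 CPM (prior count 2) are named as a description. Fold changes from all libraries that are smaller than their standard error are not reported, except the interaction of Cx3cr1.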

Additional observations from a re-analysis of the deposited data

How the results depend on the processing

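Counts of genes past the threshold depended on the tool and on single libraries. Fold changes of the 10 genes that were no smaller than their standard error mostly kept their direction. In MI against Sham (63 genes with all settings as reported) 156 passed with no filter, 309 in a fit to the groups compared, 1066 with DESeq2 and 282 with limma on TPM. In MI-E against MI (1 gene) 33 passed with no filter, 3 in a fit to the groups compared, 577 with DESeq2 and 50 with limma. In MI-E against Sham-E and in Sham-E against Sham (0 genes each) DESeq2 called 212 and 2, where edgeR had 2031 and 287 at an unadjusted p under 0.05. In the interaction (1 gene) DESeq2 called 167 and limma 7. With infarction averaged over EMPA (43 genes) 113 passed with no filter, 1132 with DESeq2 and 336 with limma, and with EMPA averaged (0 genes; 869 at an unadjusted p under 0.05) they were 1, 9 and 2. Of the 10 genes, DESeq2 called 2 in MI against Sham, 1 in MI-E against MI and 1 in MI-E against Sham-E, limma called 1 in MI against Sham (Cx3cr1, adjusted p = 0.0319), and infarction averaged over EMPA called 0 with no filter, where it called 1 as reported. Whether the replicate numbers pair the libraries could not be decided with 3 libraries per group. The deviations of 13 same-numbered pairs correlated at −0.206 to 0.15, with 4 over 0.1. Those of 41 other pairs correlated at −0.217 to 0.263, with 6 over 0.1. With the replicate block 1 gene passed in MI against Sham, 0 in the interaction, and 0 genes and 0 of the 10 with infarction averaged over EMPA (Cx3cr1 adjusted p = 0.0741). Leaving out each library in turn gave 1 to 1231 genes in MI against Sham, 1 to 997 in MI-E against MI, 0 to 115 in MI-E against Sham-E, 0 to 0 in Sham-E against Sham, 1 to 152 in the interaction, 0 to 1639 for infarction averaged and 0 to 11 for EMPA averaged. Of the 10 genes it gave 0 to 3 in MI against Sham and 0 to 4 for infarction averaged, both highest without Sham-E 1. Directions turned without Sham-E 1 in Sham-E against Sham, for Ccr2 (−0.113, range −0.113 to 0.571), F13a1 (−0.091, to 0.878) and Ms4a6c (−0.012, to 0.325), and without MI-E 3 in MI-E against Sham-E for Nr4a1 (−0.343, to 1.135). The cause of these changes was not tested. The other values of single genes came to 399 on the same side of the threshold, 37 newly past it and 6 no longer past it over all alternatives that keep every library, with 0 turned in direction. With a library left out they came to 861 on the same side, 30 newly past it, 29 no longer past it and the 4 turned in direction above. Both tallies include named list genes beside the 10, and leave out fold changes of the 10 that were smaller than their standard error. Leaving out a library outside a comparison of 2 groups hardly moves its fold change, so many of the 861 could not have turned. With the replicate block the fold change of Ace in MI against Sham was −1.062, of Ccr2 in MI-E against MI −0.221, and the interactions of Ccr2 and F13a1 were −0.405 and −0.471.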
